A study of Mus musculus with 6 samples.

Results

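The laminin chain genes described here were the α chain genes Lama1, Lama3 and Lama5, the β chain genes Lamb1, Lamb2 and Lamb3, and the γ chain gene Lamc1. They were read through every probe set, a group of array probes for a transcript, that the platform annotation pairs with only that gene. This gave 7 genes of 18193 with a probe set of their own, and 14 probe sets of 45101 on the array. Laminins are secreted proteins of the basement membrane, the sheet of matrix on which an epithelium stands, and each molecule is built from an α, a β and a γ chain encoded by separate genes. Laminin molecules polymerise at the cell surface, are held there by integrins and dystroglycan, and are tied to the collagen IV network by nidogens. In the gut, epithelial cells and the mesenchyme beneath them both make laminin chains. The β3 chain is found with the α3 chain in the laminin of hemidesmosomes, and the α5 chain is typical of epithelial basement membranes.

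The samples were 3 of N-cadherin replacement and 3 controls, 1 array each, of small intestinal epithelial cells that had been detached with EDTA from C57BL/6 mice 14 days old. Replacement mice had the genotype Ecadflox/Ncad;Vil-Cre: a floxed E-cadherin allele opposite an allele carrying N-cadherin, with Cre recombinase under the villin promoter, which is active in gut epithelium. Control mice were littermates that kept E-cadherin, and their label reads only Control, so which of these alleles they carried is unknown. Values are the deposited linear intensities, set to 16 where lower (the floor) before log2 was taken, and a probe set was tested where at least 3 of the 6 arrays reached 16. The log2 ratio of control 2 to control 3 had an SD of 0.115 over 5109 bright probe sets, against 0.347 to 0.564 for other pairs within a group, and were averaged as 1 replicate, which left n = 3 replacement and n = 2 control replicates. For this pair 18 hybridization controls gave an SD of 0.0824, and 0.0812 to 0.134 over all pairs. The labels do not name separate animals, so p-values measure only the spread between these samples.

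The E-cadherin gene Cdh1 had intensities of 1073, 1175 and 1357 in replacement arrays, against 2757, 2335 and 2204 in control arrays, a log2 difference of -1.06 (SE 0.241) that missed the threshold (limma adjusted p = 0.0581, and 0.0144 to 0.303 over 18 alternatives, of which 6 passed). Both probe sets of the N-cadherin gene Cdh2 were under the floor on all arrays. Whether these probe sets read the deleted or the introduced sequence is not given, so they check the labels only in part. Xist and the Y-linked Eif2s3y put replacement 2, replacement 3 and control 1 with females and the other arrays with males. Xist was at 440.4, 577.8 and 2305 in these 3 arrays, and at 37.5 or less in the others. Eif2s3y was at 114.2 in replacement 1, at 410.4 and 418.1 in control 2 and control 3, and at 2.2 or less in the others. The epithelial markers Epcam, Krt8, Krt18, Krt20, Vil1, Cdx2 and Cdx1 were measured in both groups, with summed intensities of 18776 to 22371 in replacement arrays and 14867 to 15532 in control arrays. The keratins differed most, with log2 differences of 1.35 (Krt20), 0.76 (Krt18) and 0.40 (Krt8). Cdx2 had 0.20, Epcam 0.18, Vil1 0.03 and Cdx1 -0.01, and none of the 7 passed the threshold. The ratio of 3′ to 5′ signal of β-actin was 1.10 to 1.24 in replacement arrays and 1.30 to 1.35 in control arrays, and that of Gapdh was 0.660 to 0.715 in replacement arrays and 0.651 to 0.774 in control arrays. The part of RNA quality in the laminin results was not tested.

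RefSeq promoter windows (GRCm38.p6) were matched for 4 of the 7 genes. The 250 bases before an annotated start are shown for the pair of genes with the largest positive differences. Capitals mark matches, on either strand, to 6 short motifs: TGANTCA for AP-1, TATAAA for the box that binds TBP, GGGCGG for the GC box, CCAAT for the CCAAT box, CATTCC for TEAD and CAGGTG for the E-box. The window of Lamb3 lies at chr1:193301993-193302242 on the plus strand and that of Lama5 at chr2:180225860-180226109 on the minus strand. Both starts are internal to the RefSeq gene span. That of Lamb3 begins at 193294353, so its whole window lies inside the gene. That of Lama5 begins, on the minus strand, at 180225904, so the last part of its window lies inside the gene.
Lamb3: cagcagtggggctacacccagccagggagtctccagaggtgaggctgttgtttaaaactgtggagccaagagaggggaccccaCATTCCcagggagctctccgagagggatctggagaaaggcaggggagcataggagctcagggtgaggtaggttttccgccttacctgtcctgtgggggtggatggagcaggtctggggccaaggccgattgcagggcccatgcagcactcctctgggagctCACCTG
Lama5: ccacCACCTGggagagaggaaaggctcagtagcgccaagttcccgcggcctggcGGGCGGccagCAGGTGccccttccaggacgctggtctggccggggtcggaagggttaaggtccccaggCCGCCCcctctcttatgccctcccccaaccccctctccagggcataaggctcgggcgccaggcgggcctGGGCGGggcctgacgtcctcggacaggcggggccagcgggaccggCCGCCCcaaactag
The Lamb3 window held 1 CATTCC match that began 167 bases before the start and 1 CAGGTG match 6 bases before it. Another annotated start of Lamb3, whose window ends where this one begins, held none of the 6 motifs, and the window shown was picked because it held matches. In the Lama5 window there were 4 GGGCGG and 2 CAGGTG matches, and 72.4% of its bases were G or C, against 61.2% in the Lamb3 window shown and a median of 52.4% over 32851 promoter windows. Among those windows 12.6% held the TEAD letters, 17.2% the E-box, 32.7% the GC box, 33.8% the CCAAT letters, 6.75% the AP-1 letters and 12.4% the TBP box. These matches describe letters only.

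Lamb3 rose and was the only one of the laminin genes to pass the test. Of the 14 probe sets 6 were tested, for Lama3, Lama5 (2), Lamb1, Lamb3 and Lamc1. Of these 1 was higher in replacement samples and none lower at a limma adjusted p under 0.05, where 2.20% of all 26630 probe sets tested were higher and 1.83% lower, or 4.04% in either direction. Without adjustment 2 were higher at a p under 0.05, Lamb3 and a probe set of Lama5, and 0 were lower, where 10.2% and 9.34% of all probe sets tested were. The median log2 difference over all probe sets was -0.02. Because the samples are bulk RNA, more cells of a type and more RNA per cell cannot be told apart in any of these values.

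Among the β chains, Lamb3 had intensities of 309.1, 320.2 and 364.0 in replacement arrays, against 49.2, 39.4 and 33.7 in control arrays. Only 1 probe set reads Lamb3, so its values could not be compared with those of another. Every replacement array stood far above every control array, and the replacement arrays lay close together. The geometric means were 330 in replacement samples and 42.3 in control samples (SD on the log2 scale 0.124, n = 3, and 0.306, n = 2). The log2 difference was 2.96 (SE 0.247, 95% interval 2.39 to 3.54), which is 7.80-fold higher (limma adjusted p = 0.00276). Only 55 of the 26630 probe sets tested had a larger positive difference. Within the arrays put with females the log2 difference was 2.79 and within those put with males 3.08, each from 1 control replicate. Over 18 alternatives it ran between 2.75 and 3.18. The call was lost without control 1 (3.18, limma adjusted p = 0.128), without control 2 and control 3 together (2.75, adjusted p = 0.138) and where dim probe sets were kept in the fit (2.96, adjusted p = 0.0669).

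**Figure D1:**
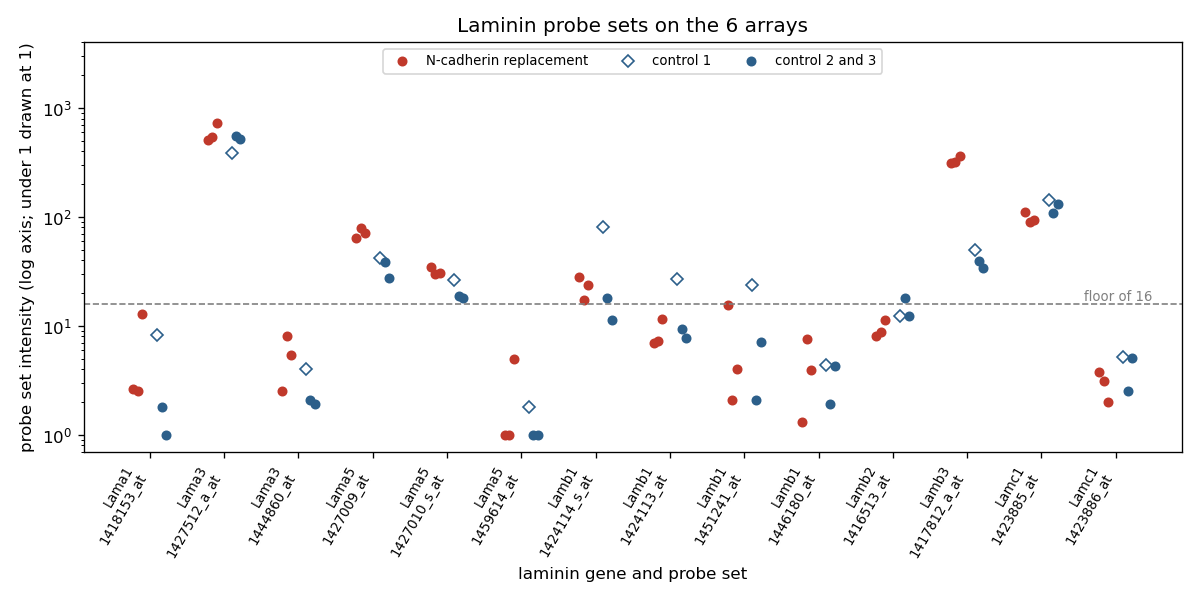
Intensity (log axis) of all 14 laminin probe sets on each of the 6 arrays, with replacement arrays as red circles to the left and control arrays in blue to the right, control 1 as an open diamond. Lamb3 lies between 309.1 and 364.0 in replacement arrays and between 33.7 and 49.2 in control arrays, whereas 8 probe sets reached the dashed floor of 16 on at most 1 array.

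Lamb1, the β chain that joins γ1 in many laminins, gave 28.1, 17.1 and 23.5 in replacement arrays, against 80.4, 18.1 and 11.4 in control arrays with its brightest probe set (with the suffix _s_at, which marks probes that transcripts may share). Control 1 alone was high, and the other control arrays overlapped with the replacement arrays. The log2 difference was -0.72 (control 3 entering at the floor, SE 0.598, 95% interval -2.12 to 0.68, limma adjusted p = 0.582) with control 1 and 0.40 (adjusted p = 0.729) without it. A pair of other Lamb1 probe sets reached the floor in control 1 only, at 27.1 and 23.9, and the last stayed under it on every array. Lamb2, a β chain of vascular and neuromuscular basement membranes, had 8.0, 8.7 and 11.3 in replacement arrays, against 12.3, 18.0 and 12.3 in control arrays. It reached the floor in control 2 alone and was not tested.

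Among the α chains, Lama5 was read by 3 probe sets. The brightest gave 64.2, 79.4 and 70.6 in replacement arrays, against 41.8, 38.8 and 27.7 in control arrays, and the groups did not overlap. Its log2 difference was 0.94 (SE 0.244, 95% interval 0.37 to 1.51), which is 1.92-fold, with a limma adjusted p of 0.0853 that missed the threshold over all probe sets. It passed with 1 probe set per gene (0.94, adjusted p = 0.0416) and with control 2 and control 3 as separate replicates (1.001, adjusted p = 0.0249). Over the alternatives its adjusted p ran from 0.0249 to 0.327. Another Lama5 probe set (suffix _s_at) gave 34.5, 30.0 and 30.5 in replacement arrays, against 26.2, 18.6 and 17.9 in control arrays. These groups did not overlap either, and the log2 difference was 0.53 (SE 0.255, limma adjusted p = 0.314). The last Lama5 probe set never exceeded 4.9. In all, 3 laminin probe sets (Lamb3 and this pair of Lama5) had groups that did not overlap and were higher in replacement arrays, and 0 were lower, where 16.9% and 15.2% of all probe sets tested, or 32.1% together, behaved so.

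Lama3, the α chain that pairs with β3, had 504.6, 539.7 and 722.9 in replacement arrays, against 382.6, 549.9 and 523.2 in control arrays. Replacement 3 was the highest and control 1 the lowest, and the groups overlapped. The log2 difference was 0.36 (SE 0.279, 95% interval -0.29 to 1.01, limma adjusted p = 0.553), so a change between 1.22-fold lower and 2.02-fold higher lay within the interval. Within the arrays put with females the log2 difference was 0.71 and within those put with males -0.088. A second Lama3 probe set stayed at 8.0 or less. Lama1, an α chain known from embryonic basement membranes, did not reach the floor on any array (at most 12.8), so it has no fold.

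Lamc1, the γ chain shared by most laminins, had 111.2, 89.9 and 94.2 in replacement arrays, against 141.6, 107.6 and 131.5 in control arrays. Replacement 1 lay above control 2, and the other replacement arrays lay below every control array. The log2 difference was -0.40 (SE 0.238, 95% interval -0.96 to 0.15, limma adjusted p = 0.417). Its other probe set stayed at 5.2 or less on all arrays.

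**Figure D2:**
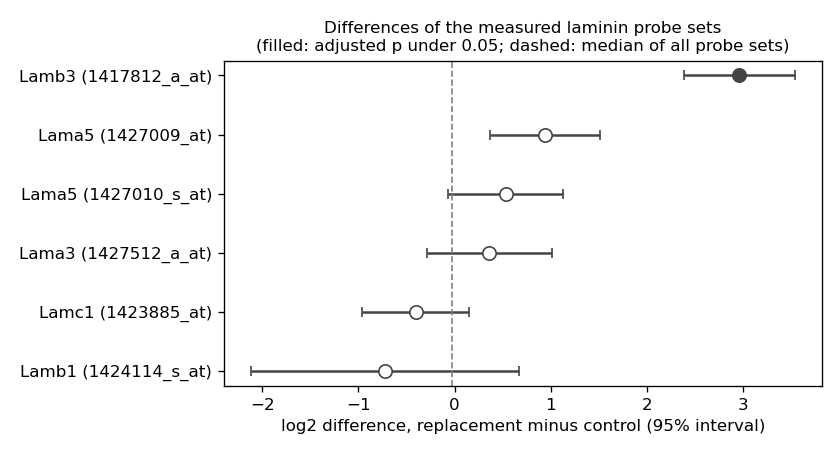
Log2 difference (replacement minus control, x axis) of the 6 tested laminin probe sets with 95% intervals from limma. Lamb3 at 2.96 is the filled point, past an adjusted p of 0.05, and Lamb1 has the widest interval, -2.12 to 0.68.

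Whether Lamb3 changed by another amount than the other chains was asked of the log2 ratio of Lamb3 to each of the 4 other measured genes within each replicate. The ratio to Lama3 differed by 2.60 between replacement and control samples, that to Lama5 by 2.02, that to Lamb1 by 3.68 and that to Lamc1 by 3.37. For each of these 4 pairs all 3 replacement replicates lay above both control replicates. The two-sided exact permutation test of replicates between the groups (10 ways) gave p = 0.1 for each pair, also after Benjamini-Hochberg adjustment over the 4, which is the smallest p this design allows, so no values could have passed 0.05. The pairs share the Lamb3 values. Lamb3 also had the largest log2 difference of the tested laminin probe sets on these same arrays. Higher ratios in replacement samples were thus expected beforehand, and these values are a description.

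Of the chains outside these 7 genes, Lamc3, a γ chain, had 35.9, 24.7 and 44.0 in replacement arrays, against 33.3, 22 and 24.2 in control arrays (log2 difference 0.29, SE 0.321, limma adjusted p = 0.695). Lama2 and Lama4, α chains of muscle, vessels and mesenchyme, reached the floor in control 1 only, at 21.3 and 19.1.

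Control 1 stood apart in Lamb1 and in several transcripts of mesenchymal cells. With control 3 taken at the floor, Lamb1 was at least 4.72-fold higher in control 1 than in the mean of control 2 and control 3, while Lamb3 was 1.35-fold and Lamc1 1.19-fold higher. The summed intensity of 7 fibroblast markers was 383.8, 437.8 and 490.9 in replacement arrays, against 1187, 199.9 and 208.2 in control arrays, of which 6 were tested and none passed. The collagen Col3a1 had 110.0, 135.4 and 184.0 in replacement arrays, against 503.6, 44.7 and 49.5 in control arrays. Pdgfra, a receptor that defines gut fibroblasts, was at 69.6 in control 1 and at 2.9 or less elsewhere. The basement membrane collagen Col4a1 ran the same way, with 49.5, 29.9 and 41.8 in replacement arrays, against 165.1, 20.3 and 23.0 in control arrays, as did the matrix glycoprotein Sparc with 128.1, 66.7 and 74.5 in replacement arrays, against 299.2, 40.6 and 51.2 in control arrays. Replacement arrays lay between control 1 and the other controls in the fibroblast sum. Summed smooth muscle markers were 152.6 to 256.2 in replacement arrays and 172.6 to 343.8 in control arrays, with 2 of 6 tested and none called. Of these 2, Acta2 was highest in control 1, at 253.1. Des went the other way, with 8.6 in control 1 against 51.8 and 59.4 in control 2 and control 3. Endothelial markers summed to 107.1 to 173.6 in replacement arrays and 91.4 to 234.6 in control arrays, with 5 of 6 tested and none called. Immune markers summed to 1019 to 1674 in replacement arrays and 2659 to 3008 in control arrays, with 4 of 6 tested and 1 lower: Csf1r (log2 difference -1.44, SE 0.299, limma adjusted p = 0.0444), a receptor known from macrophages. Csf1r made up most of that sum, and the other 5 markers summed to 402.5, 265.0 and 281.1 in replacement arrays, against 580.9, 216.2 and 189.9 in control arrays, so they overlapped. Glial markers summed to 79.9 to 96.2 in replacement arrays and 130.0 to 171.5 in control arrays, with 3 of 5 tested and 1 lower, S100b (-1.65, SE 0.323, adjusted p = 0.0373). The other 2 glial markers tested summed to 76.7, 50.1 and 47.2 in replacement arrays, against 68.1, 55.5 and 60.6 in control arrays, and overlapped as well. Over all 12994 genes 2.21% were lower. The part of these cells in the laminin values was not tested.

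**Figure D3:**
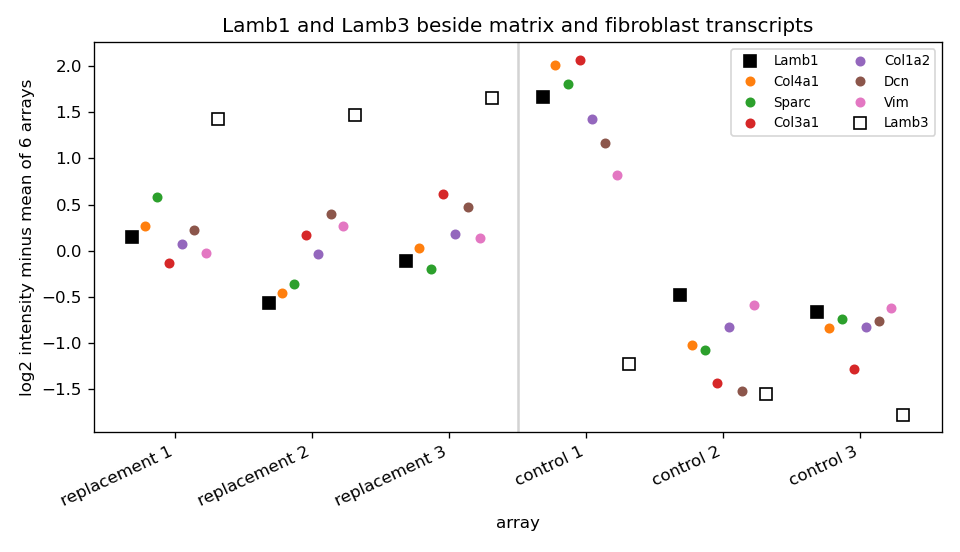
Log2 intensity minus the mean of the 6 arrays (y axis) for Lamb1 (filled squares), Lamb3 (open squares) and 6 matrix or fibroblast transcripts (circles), by array. Lamb1 and the circles are highest in control 1, where Lamb1 was at 80.4 and Col3a1 at 503.6, while Lamb3 is high in all 3 replacement arrays.

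Proteins that build the basement membrane with laminin showed 1 call. Of 18 partner genes 15 were tested by their brightest probe set, of which 1 rose and 0 fell, where 2.56% of all 12994 genes were higher and 2.21% lower, or 4.77% in either direction. The median log2 difference of those 15 genes was -0.22, beside -0.02 over all genes. Nid1 (nidogen 1), which binds the γ1 chain of laminin, had 287.4, 421.4 and 569.1 in replacement arrays, against 105.6, 92.8 and 101.9 in control arrays. Each replacement array was above every control array, and the log2 difference was 2.02 (SE 0.320, 4.05-fold, limma adjusted p = 0.0191). Its relative Nid2 had 32.6, 21.0 and 31.3 in replacement arrays, against 88.6, 57.9 and 62.6 in control arrays, with a log2 difference of -1.39 (SE 0.304) and a limma adjusted p of 0.0517 that missed the threshold.

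Receptors and linkers of laminin gave 1 rise and 1 fall among 14 tested genes of 16, beside 2.56% higher and 2.21% lower over all genes, with a median log2 difference of 0.19. Sdc1, the heparan sulfate proteoglycan syndecan 1 of the epithelial surface, had 1149, 1711 and 1630 in replacement arrays, against 357.9, 517.6 and 465.3 in control arrays (log2 difference 1.81, SE 0.284, limma adjusted p = 0.0180). The 4 probe sets of Sdc1 gave 1.46 to 2.59, and that at 1.46 missed the threshold (adjusted p = 0.0578). Dst, a plakin that anchors keratins at hemidesmosomes, had 282.1, 188.6 and 210.3 in replacement arrays, against 660.2, 640.7 and 557.3 in control arrays (-1.49, SE 0.262, adjusted p = 0.0275). Its other tested probe set gave -1.25 and missed the threshold (limma adjusted p = 0.0886). The groups of arrays did not overlap for either gene at the brightest probe set. The integrin chains of laminin receptors did not pass: Itga6 had 0.85 (SE 0.265, adjusted p = 0.136), Itgb4 0.18 (SE 0.249) and Itga3 -0.74 (SE 0.382) on the log2 scale.

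Among proteases of the matrix and their inhibitors, 15 of 18 genes were tested, 1 rose and 1 fell, beside the same 2.56% and 2.21% over all genes, and the median log2 difference was -0.10. Plat, the tissue plasminogen activator, had 52.6, 103.6 and 79.3 in replacement arrays, against 24.0, 10 and 10.3 in control arrays. With 2 of 3 control arrays at the floor the rise was at least 3.86-fold (1.95 or more on the log2 scale, SE 0.347, limma adjusted p = 0.0286), and its other tested probe set gave 0.33. Timp3, a matrix-bound inhibitor of metalloproteases, had 40.1, 35.0 and 31.5 in replacement arrays, against 172.8, 211.9 and 220.6 in control arrays. The groups were far apart, at 5.47-fold lower in replacement samples (log2 difference -2.45, SE 0.245, adjusted p = 0.00540), and its 4 probe sets ranged from -2.49 to -1.78. Bmp1, a protease known to trim laminin chains, had -1.08 (SE 0.269, adjusted p = 0.0769). The 5 calls in these lists (Nid1, Sdc1, Plat, Dst and Timp3) were all lost without control 1, without control 2 and control 3 together, and without replacement 3, and those of Nid1, Sdc1, Plat and Dst without replacement 2.

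**Figure D4:**
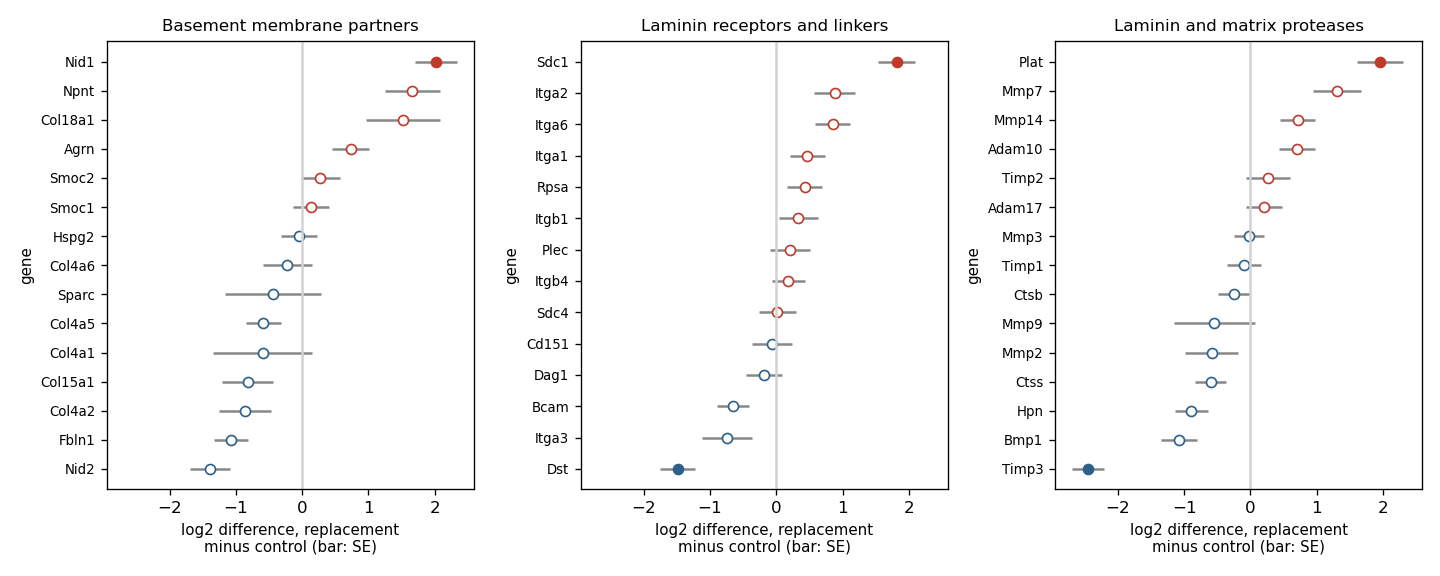
Log2 difference (replacement minus control) with its SE for the tested genes of the partner, receptor and protease lists, ordered within each list. Filled points passed an adjusted p of 0.05: Nid1, Sdc1 and Plat above 0, and Dst and Timp3 below 0.

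The genes whose values over the 6 arrays were most like those of Lamb3 were Rflnb, Ncmap, Prss22, Krt23 and Tm4sf4, by the root mean square distance between log2 values, each taken minus its own mean, among 12994 genes. Their distances were 0.171, 0.194, 0.195, 0.198 and 0.246 on the log2 scale. Rflnb, which encodes the actin regulator refilin B, had 577.4, 536.5 and 621.9 in replacement arrays, against 116.8, 78.2 and 69.6 in control arrays. Krt23, a keratin, had 279.3, 368.3 and 275.0 in replacement arrays, against 49.6, 32.9 and 33.8 in control arrays. For Prss22, a serine protease, the values were 141.6, 227.2 and 194.2 in replacement arrays, against 26.1, 22.3 and 20.7 in control arrays. Ncmap was under the floor in all control arrays and at 135.3 to 147.1 in replacement arrays, so its likeness to Lamb3 depends on the floor. The log2 difference of Ncmap was 3.14 as reported, 2.14 with a floor of 32 and 5.05 with a floor of 4. That of Lamb3 was 2.96 with each of these floors. The distance of Ncmap with other floors was not tested. Tm4sf4, a membrane protein, was at 2113 to 2158 in replacement arrays and at 285.5 to 474.2 in control arrays. Since these genes were chosen by their likeness to Lamb3 on the same arrays, these values are a description.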

How the data were processed

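The authors deposited linear probe set intensities that share a scale: trimmed of 2% at either end, each array averaged 100. The submitters' processing notes name limma and GCRMA without role, order or version. From the deposited intensities log2 was taken after a floor of 16, which compresses differences of dim transcripts. The 64 Affymetrix control probe sets were left out, a step added after a first fit had been seen. Of the other 45037 probe sets 34945 had 1 gene symbol, 932 several and 9160 none in the annotation used. Probe sets with at least 3 arrays at or above 16 entered a fit by lmFit and eBayes of limma 3.58.1 (R 4.3.3), with Benjamini-Hochberg adjustment over all 26630 and a threshold of 0.05. Lists were read from that fit by each gene's brightest probe set, and named genes are the laminin chains, Cdh1, Cdh2, list members past the threshold and the 5 genes most like the laminin gene with the smallest p. Other genes (Nid2, Col4a1, Sparc, Itga6, Itgb4, Itga3, Bmp1 and cell markers) were chosen after their values were seen. The members and lists were chosen with earlier results of these data known. Steps were tested on simulated data. Same-numbered samples were checked for pairing: their deviations from group means correlated by 0.213, 0.0813 and 0.142, so the numbers were not taken as pairs. Motifs were chosen after the data were seen, and CATTCC and CAGGTG were added once the other motifs had given no match in either Lamb3 window, so their matches there are no evidence. Plots used matplotlib 3.10.9. For arrays no read depth exists, and their number limits precision. Alternatives were other floors, filters, normalizations, eBayes options, units, blocks and left-out arrays.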

Additional observations from a re-analysis of the deposited data

Results flagged for a closer look

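In 2 laminin genes, neither of which passed the test, the replacement arrays lay on opposite sides of the control arrays in those that Xist and Eif2s3y put with females and with males. The log2 difference of Lamb1 was -2.004 within females, where both replacement arrays lay below control 1, and 0.72 within males, where replacement 1 lay above control 2 and control 3 (control 3 taken at the floor). For Lama3 it was 0.71 within females and -0.088 within males, the second well inside its SE of 0.279 in the fit of all arrays. The difference between the sexes was not tested, the sex was read from the arrays and not from the labels, and sex cannot be told apart from the single control replicate on each side.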

How the results depend on the processing

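Of 18 alternatives, 15 kept the call of Lamb3, and its log2 difference stayed between 2.75 and 3.18. The count of laminin probe sets higher in replacement samples, 1 in the reported fit, was 2 (Lamb3 and Lama5) with a filter at 64, with control 2 and control 3 as separate replicates, with 1 probe set per gene and with the replicate block, and 0 with no filter (2 at an unadjusted p under 0.05). Both probe sets met the filter at 64 through the replacement arrays alone, so that count says nothing about stability. Leaving out arrays gave 0 to 1. It was 0 without control 1 (3 unadjusted) and without control 2 and control 3 together (2 unadjusted), where the single control replicate left borrows its spread from the other group. No laminin probe set was called lower in the limma fits run. Lamb1 reversed to 0.40 without control 1 and was at -1.84 without control 2 and control 3 together. The related lists, with 3 genes higher and 2 lower as reported, gave 0 and 0 with no filter, 0 and 1 with a floor of 32, 6 and 6 with separate controls, 5 and 5 with 1 probe set per gene, and 7 and 6 with the replicate block. The lower count was 4 with a filter at 64, 1 with a floor of 4, 4 with trend and robust options and 1 with the sex block. Leaving out arrays gave 0 to 3 higher and 0 to 3 lower. Over all probe sets, 587 were higher and 488 lower as reported, against 30 and 64 with no filter, 954 and 839 with a filter at 64, 123 and 167 with a floor of 32, 391 and 270 with a floor of 4, 1622 and 1390 with separate controls, and 1631 and 1474 with the replicate block. With the sex block 310 were lower. Leaving out arrays gave 0 to 822 higher and 0 to 570 lower: 0 and 0 without control 1 or without control 2 and control 3, 71 and 39 without replacement 2, and 35 and 9 without replacement 3. The samples of a number shared only that number, so the replicate block is given as a value. That fit also kept control 2 and control 3 separate, so its counts are to be read against those with separate controls. Some alternatives also changed the number of tested probe sets or of replicates, and the cause of these shifts was not tested. Signal under the floor limited what could be said of Lama1, Lamb2 and most Lamb1 probe sets.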
